A study of Rattus norvegicus with 34 samples.

Results

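Liver gene expression in male F344 rats was compared between 18 and 11 months of age on 8 of the 34 microarrays of the study. The members were chosen by their source label, 4 livers of 18-month and 4 of 11-month rats, each liver on its own Affymetrix Rat 230 2.0 array. All 8 rats were untreated, had been kept at their supplier until shortly before necropsy and lived under a light-dark cycle. The labels used here give no time of day for the necropsies. The same strain was also measured at 6 and at 24 months (4 rats each), and Brown Norway rats, a second inbred strain, at 4, 12 and 24 months with and without the solvent toluene (3 rats per group). The study concerns enzymes that metabolise foreign compounds in the ageing rat liver.

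Hepatocytes make up most of the liver's mass and hold a circadian clock, whose activators BMAL1 with CLOCK or NPAS2 switch on genes through E-boxes in their promoters. Among these genes are the repressors REV-ERBalpha (Nr1d1) and REV-ERBbeta (Nr1d2), which in turn hold down Bmal1, Npas2, Cry1 and Nfil3 through ROR elements. Between the hepatocytes lie Kupffer cells, the liver's resident macrophages, which with other antigen-presenting cells display peptides on MHC class II molecules. Growth hormone pulses set a male pattern of liver enzymes in the rat, with Cyp2c11 and Cyp3a2 as its best-known members.

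A signal below is the deposited linear intensity of a gene's probe set. Signals under 32 were set to 32 before log2 was taken, and a gene passed at a Benjamini-Hochberg adjusted p under 0.05 in limma. Of 9206 genes tested, 27 passed (0.293%). Of these, 19 (0.206%) rose and 8 (0.0869%) fell between 11 and 18 months. The median log2 fold change of all genes tested was -0.01. On each of the 27 genes the 4 arrays of 18 months lay wholly above or wholly below the 4 of 11 months, as they did for 432 genes in all (4.69%), 221 of them higher (2.40%) and 211 lower (2.29%). At an unadjusted p under 0.05 there were 557 higher (6.05%) and 468 lower genes (5.08%). The genes nearest outside the threshold, S100a4, Fnip2, Hsd17b2, Pla2g2d and S100a11, had an adjusted p of 0.0557. The count of 27 rested on single arrays: leaving out replicate 3 of 18 months left 0 calls in limma (721 genes at an unadjusted p under 0.05). With replicate 2 of that age left out it was 16, and with replicate 4 left out 81. At 11 months it was 16, 6 and 3 when replicate 1, 2 or 3 was left out. The spread was pooled over all 16 F344 arrays, and a fit of the 8 compared arrays only left 0 calls (778 genes at an unadjusted p under 0.05). All 27 genes kept their direction in each of these fits.

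**Figure D1:**
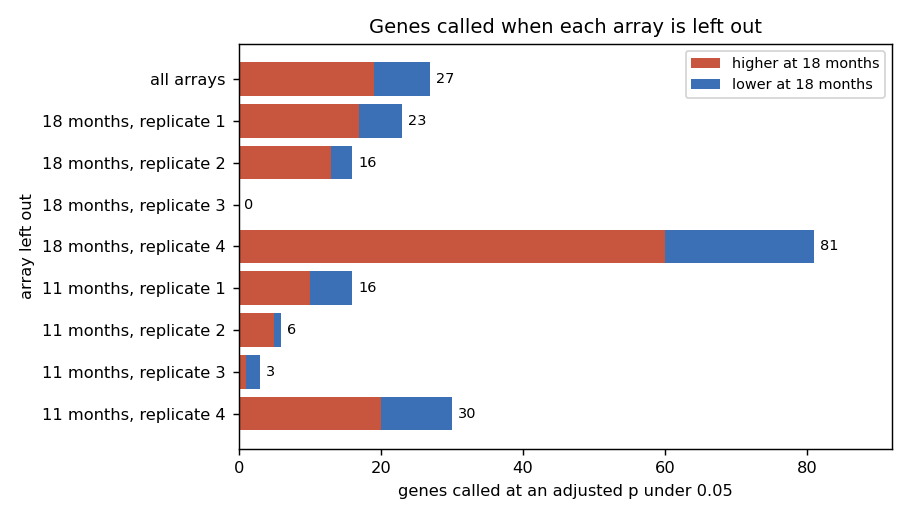
Number of genes called at an adjusted p under 0.05 (x axis) with all 8 arrays and with each array left out in turn (y axis), split into genes higher and lower at 18 months. The count is 27 with all arrays, and at 18 months it is 0 with replicate 3 and 81 with replicate 4 left out.

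Array quality differed within both groups. GAPDH has probe sets at both ends of its transcript, and their 3' over 5' signal, which grows as RNA degrades, was 7.33, 3.74, 1.88 and 1.49 on the 11-month arrays and 1.88, 1.31, 1.65 and 5.31 on the 18-month arrays. The means were 3.61 ± 2.67 (SD, n = 4) and 2.54 ± 1.86 (two-sided exact permutation test, p = 0.571; the smallest p that 4 against 4 arrays allow is 0.0286). Replicate 1 of 11 months and replicate 4 of 18 months, the arrays with the highest ratio in their groups, had a rank correlation of 0.936 with each other. They correlated at 0.889 to 0.929 with the 6 other arrays, which ranged from 0.918 to 0.959 among themselves. With the GAPDH ratio as a covariate 63 genes passed, all 27 among them. Leaving out the arrays with a ratio above 2.5 left 1 gene, Nhej1, a DNA end-joining factor that is not among the 27. Without these 2 arrays (replicate 1 of 11 months and replicate 4 of 18 months), below called the 2 arrays that stand apart, 54 genes passed, 20 of the 27 among them. The summed signal of 5 measured hepatocyte markers was 30887 to 32033 at 11 and 30800 to 32745 at 18 months, so the tissue label held on all 8 arrays.

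**Figure D2:**
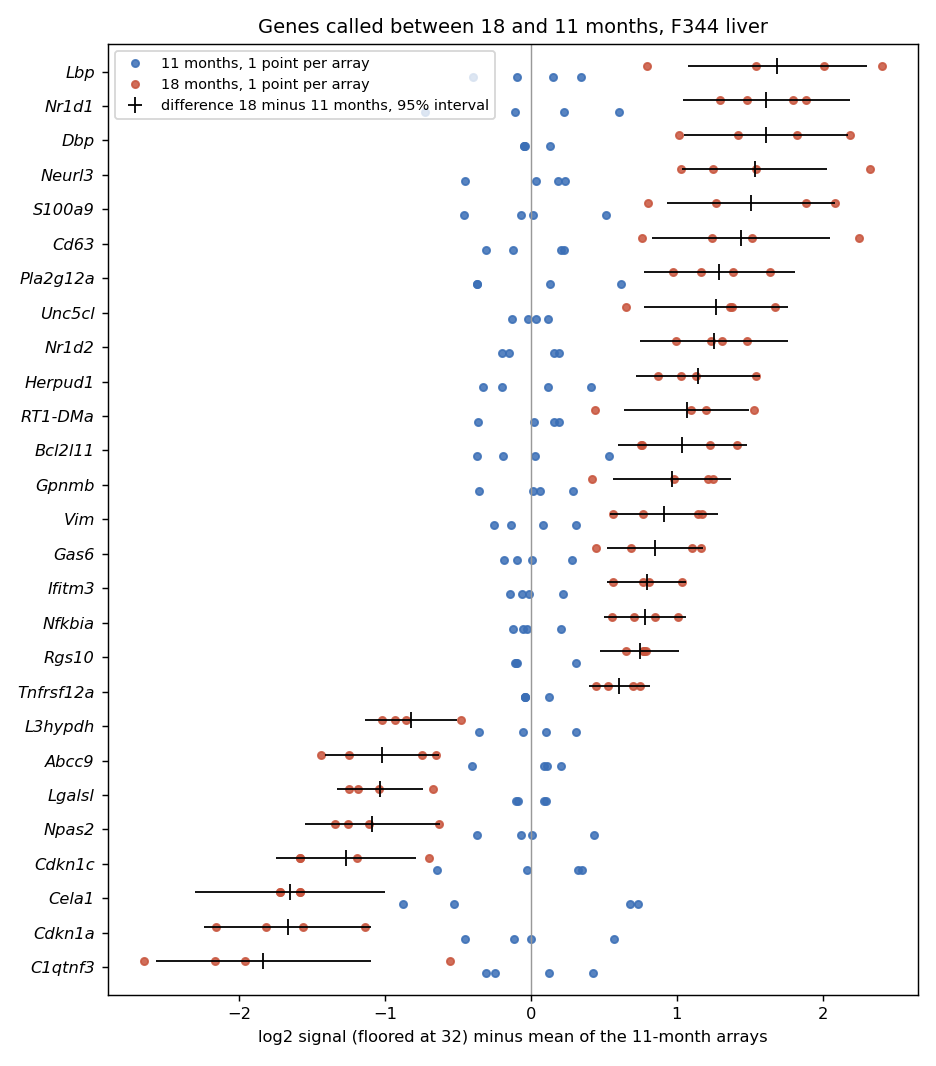
The 27 genes called, by log2 signal on each array minus the mean of the 11-month arrays (x axis), with 1 point per array and the difference with its 95% interval as a black line. The points of the 2 ages do not overlap for any of these genes; log2 fold changes run from -1.84 for C1qtnf3 to 1.69 for Lbp.

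Clock genes gave 4 of the 27 calls. Of 15 clock genes tested, 3 rose (Dbp, Nr1d1 and Nr1d2) and 1 fell (Npas2), against 0.293% of all genes. A further 3 were higher and 4 lower at an unadjusted p under 0.05, so that 11 of 15 lay past that limit, which 11.1% of all genes passed. One of the 3 higher, Per3, met the filter of 4 arrays only through replicates 1 to 3 of 18 months and a 6-month array at 32.1. The filter thus favoured its direction, and its place in this count is no separate support. The list held 19 names: Arntl is the old name of Bmal1, the signal of Ciart was not analysed here, and Per1 and Bhlhe41 lay below the filter. Its median log2 fold change was -0.21, since its members lay on both sides of 0.

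The promoters of the clock genes are shown because the direction of a gene can be set beside the element it carries. RefSeq windows of 300 bases (GRCr8, 250 bases before to 50 after the annotated start) were searched on both strands for the E-box CACGTG, present in 6.42% of 33469 windows, and for the ROR/REV-ERB motif AGGTCA, present in 16.2%. Windows were found for 16 of 18 clock genes. CACGTG was found in a window of Nr1d1, Tef and Bhlhe40, which had positive log2 fold changes, and AGGTCA in Nr1d2, which rose, and in Bmal1, which had a negative one. Bhlhe41 and Ciart, which have no tested value, also held CACGTG. Neither motif was in the windows of Dbp, Npas2, Per3 or Nfil3. A match describes letters in this window and is no measured binding site. The matches lay 191 (Nr1d1, at the second of its starts), 198 (Tef), 220 (Bhlhe40), 187 (Nr1d2) and 15 bases (Bmal1) before the start. Stretches of 100 bases that hold each match, with the matched letters in capitals, read as follows.
Nr1d1, chr10:84229595-84229694, minus strand: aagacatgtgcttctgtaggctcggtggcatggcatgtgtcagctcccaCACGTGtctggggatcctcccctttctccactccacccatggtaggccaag
Tef, chr7:115206587-115206686, plus strand: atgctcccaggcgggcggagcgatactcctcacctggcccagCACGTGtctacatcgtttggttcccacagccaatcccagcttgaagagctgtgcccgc
Bhlhe40, chr4:143174210-143174309, plus strand: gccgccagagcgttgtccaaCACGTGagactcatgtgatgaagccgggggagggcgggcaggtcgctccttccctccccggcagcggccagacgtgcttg
Nr1d2, chr15:9954794-9954893, plus strand: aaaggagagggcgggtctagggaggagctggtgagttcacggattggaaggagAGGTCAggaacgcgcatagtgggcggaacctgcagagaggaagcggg
Bmal1, chr1:176766228-176766327, plus strand: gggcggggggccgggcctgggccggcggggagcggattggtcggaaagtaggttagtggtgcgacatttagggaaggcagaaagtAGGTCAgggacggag

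Nr1d1, which encodes the repressor REV-ERBalpha, had signals of 78.1, 61.9, 40.3 and 101 at 11 months and 246, 163, 231 and 186 at 18 months. Its lowest 18-month array was above the highest 11-month array. It rose 3.06-fold (a log2 difference of 1.61, SE 0.27, adjusted p = 0.0225). Nr1d2, its paralogue REV-ERBbeta, read 164, 210, 169 and 214 at 11 months and 374, 442, 467 and 526 at 18 months. It rose 2.39-fold (a log2 difference of 1.26, SE 0.24, adjusted p = 0.0325), and its second probe set gave 1.12. Dbp, a PAR-domain transcription factor and clock output, read 12.9, 13.1, 32.2 and 36.2 at 11 months and 88.3, 66.9, 151 and 117 at 18 months. At 11 months 2 of its 4 arrays lay below the floor. With those set to the floor it rose 3.06-fold (a log2 difference of 1.61, SE 0.26, adjusted p = 0.0224).

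Npas2, the partner of BMAL1, went the other way. Its signals were 218, 154, 162 and 125 at 11 months and 74.6, 104, 67.5 and 63.5 at 18 months, and it fell 2.13-fold (a log2 difference of -1.09, SE 0.22, adjusted p = 0.0446). Cry1, a repressor of the clock's activators, read 168, 110, 98.0 and 90.1 at 11 and 36.6, 41.9, 29.1 and 65.4 at 18 months. Its groups did not overlap and its log2 fold change was -1.42 (SE 0.31), but it did not pass (adjusted p = 0.073). Nfil3, a repressor that competes with DBP, had means of 252 ± 66.8 and 139 ± 29.9 (SD, n = 4), with a log2 fold change of -0.85 (adjusted p = 0.151). Bmal1, the central activator, had means of 94.0 ± 28.8 and 50.2 ± 24.3, with a log2 fold change of -0.87 (adjusted p = 0.18), and its groups overlapped. The PAR-domain factors related to DBP parted: Tef had a log2 fold change of 0.53 and Hlf one of -0.56, and neither passed. Per3, a period gene, lay below the floor on all 4 arrays of 11 months and on 1 of 18 months.

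At 24 months the called clock genes were on the other side again. This comparison, in which 1.76% of all genes passed, shares the 18-month arrays, so its values are set beside the others only as a description. Nr1d1 had a mean of 145 ± 40.1 at 6 months and 35.6 ± 17.2 at 24 months, and between 18 and 24 months its log2 fold change was -2.42 (SE 0.27, adjusted p = 7.82e-05). Nr1d2 had 321 ± 69.4 at 6 and 142 ± 70.5 at 24 months (log2 fold change from 18 to 24 months -1.77, adjusted p = 0.000561). Dbp had 46.8 ± 27.5 at 6 and 15.5 ± 9.20 at 24 months (-1.66, adjusted p = 0.00255). Npas2 had 146 ± 45.7 at 6 and 155 ± 21.3 at 24 months (1.01, adjusted p = 0.0244). No order by age held for these 4 genes: the 18-month group was the highest of the 4 ages for Nr1d1, Nr1d2 and Dbp, and the lowest for Npas2. Some called genes outside the clock list also turned back between 18 and 24 months in limma. Lgalsl had 1.18 (adjusted p = 0.000125), L3hypdh 1.10 (0.000528), Bcl2l11 -0.94 (0.0287), Herpud1 -0.89 (0.032) and Tnfrsf12a -0.47 (0.0221). Others did not: Abcc9 went on falling (-0.74, adjusted p = 0.055), and Vim (0.02) and Gpnmb (0.05) stayed near their 18-month values.

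**Figure D3:**
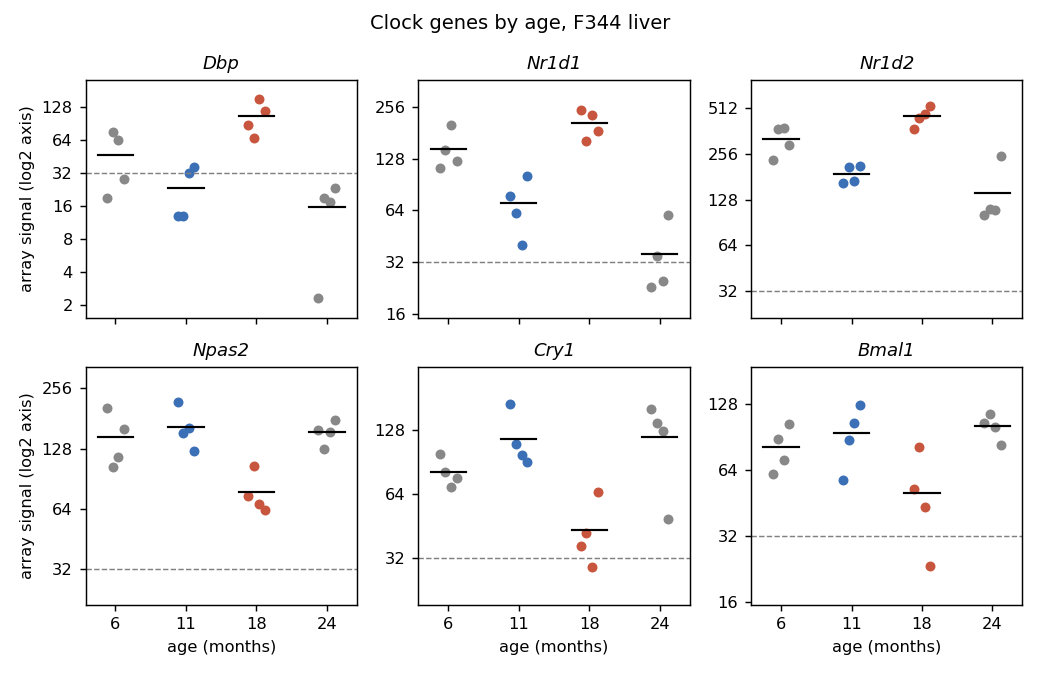
Signals of 6 clock genes on each array (y axis, log2-spaced) at 6, 11, 18 and 24 months (x axis), 4 arrays per age, with the mean as a black bar and the floor of 32 dashed. Dbp, Nr1d1 and Nr1d2 are highest at 18 months, with means of 106, 207 and 452, and Npas2, Cry1 and Bmal1 are lowest there, with means of 77.5, 43.3 and 50.2.

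MHC class II genes were higher at 18 months as a group, though 1 of 8 tested passed. All 8 had a positive log2 fold change, with a median of 1.18 against -0.01 over all genes, and 7 lay past an unadjusted p under 0.05 (6.05% of all genes in this direction). The list held 12 names, of which RT1-Db2, RT1-DOa, RT1-DOb and RT1-Ha were not analysed here. RT1-DMa, a chain of the DM molecule that loads peptides, read 30.3, 41.8, 47.0 and 45.98 at 11 months and 88.1, 119, 94.7 and 56.0 at 18 months. With 1 array of 11 months below the floor and set to it, it rose 2.09-fold (a log2 difference of 1.07, SE 0.20, adjusted p = 0.0325).

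The peptide-presenting chains had wider spreads. RT1-Bb read 249, 471, 293 and 363 at 11 and 1030, 919, 974.7 and 566 at 18 months, with no overlap, and had a log2 fold change of 1.35 (SE 0.30, adjusted p = 0.073). RT1-Da read 307, 735, 445 and 543 at 11 and 1194, 1363, 1466 and 763 at 18 months (log2 fold change 1.26, SE 0.30, adjusted p = 0.105). In RT1-Ba the groups overlapped, since replicate 4 of 18 months was at 294 and replicate 2 of 11 months at 449, and the log2 fold change was 1.55 (SE 0.48, adjusted p = 0.193). The other RT1-Ba probe sets, of lower signal, gave -0.28 and 0.41. RT1-Db1 (1.26), Cd74, the invariant chain (1.11), and RT1-DMb (0.57) did not pass either. Replicate 4 of 18 months was the lowest of its group in RT1-DMa, RT1-Bb, RT1-Da, RT1-Ba, RT1-Db1, Cd74 and RT1-DMb. Without that array and replicate 1 of 11 months the median over the list was 1.21, and without the arrays with a GAPDH ratio above 2.5 it was 1.45. Ciita, the class II transactivator, read 30.5 ± 6.71 and 39.9 ± 5.09 (SD, n = 4), close to the floor.

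The class II promoters are shown because their Y-box, an inverted CCAAT, is a textbook element shared by this family. CCAAT was searched on both strands, its reverse complement being ATTGG, and is common: 37.5% of all windows held it. It was found in the windows of all 6 class II list genes that had one. In the 100 bases before the start it stood as ATTGG in the 5 RT1 genes below, with the matched letters in capitals.
RT1-DMa, chr20:4712336-4712435, minus strand: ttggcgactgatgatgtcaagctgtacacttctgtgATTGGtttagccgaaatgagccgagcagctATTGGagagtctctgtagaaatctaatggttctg
RT1-Da, chr20:4515315-4515414, plus strand: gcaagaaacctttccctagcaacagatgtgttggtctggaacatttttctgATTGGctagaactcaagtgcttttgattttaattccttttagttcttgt
RT1-Db1, chr20:4560163-4560262, minus strand: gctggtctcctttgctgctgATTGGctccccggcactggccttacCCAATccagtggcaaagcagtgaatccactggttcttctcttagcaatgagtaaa
RT1-Ba, chr20:4576957-4577056, plus strand: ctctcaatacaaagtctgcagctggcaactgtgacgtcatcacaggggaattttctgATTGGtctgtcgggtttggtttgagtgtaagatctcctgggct
RT1-Bb, chr20:4604119-4604218, minus strand: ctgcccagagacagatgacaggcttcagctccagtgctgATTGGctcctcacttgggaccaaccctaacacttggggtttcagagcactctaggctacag

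**Figure D4:**
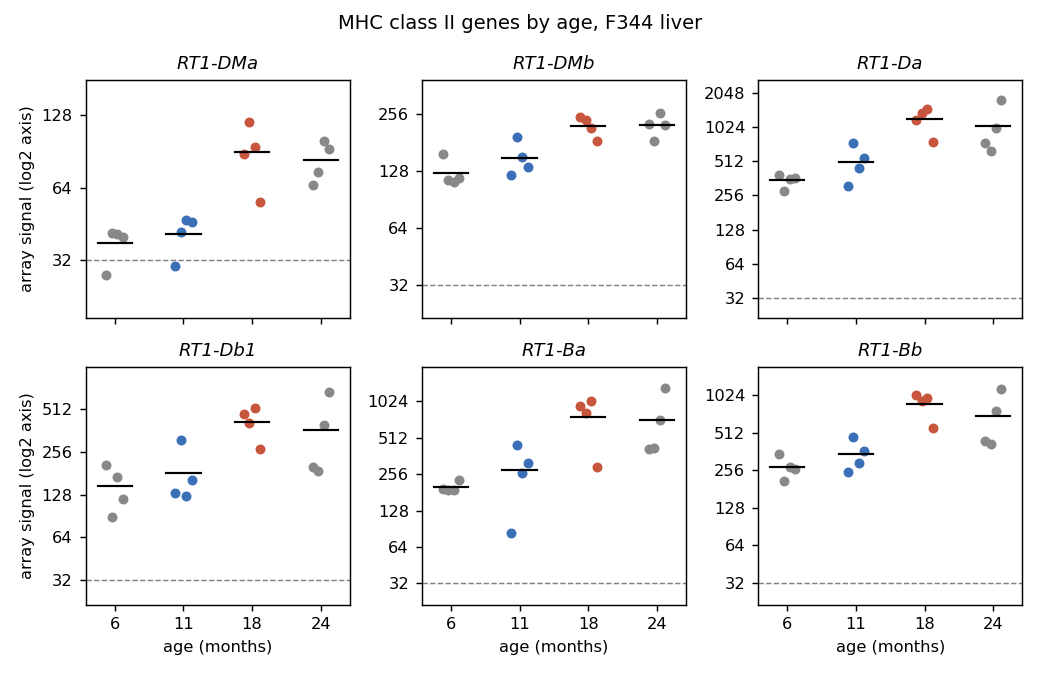
Signals of 6 MHC class II genes on each array (y axis, log2-spaced) at 6, 11, 18 and 24 months (x axis), 4 arrays per age, with the mean as a black bar and the floor of 32 dashed. Means at 18 months exceed those at 11 months in all 6 panels, for example 1196 against 508 for RT1-Da, and replicate 4 is the lowest of 18 months in each panel.

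Macrophage genes were on the same side. Of 23 Kupffer cell and macrophage genes tested, 1 rose and 23 had a positive log2 fold change, with a median of 0.45, and 8 lay past an unadjusted p under 0.05 (6.05% of all genes in this direction). Gpnmb, a glycoprotein of lipid-laden macrophages, read 236, 370, 306 and 316 at 11 months and 722, 598, 704 and 406 at 18 months. It rose 1.95-fold (a log2 difference of 0.97, SE 0.19, adjusted p = 0.0408). Fcer1g, an Fc receptor chain, had means of 441 ± 75.1 and 695 ± 92.1 (SD, n = 4; log2 fold change 0.66, adjusted p = 0.0672). Lgals3, galectin-3, had 396 ± 93.1 and 677 ± 176 (0.77, adjusted p = 0.151), and Lyz2, a lysozyme, 1272 ± 129 and 1756 ± 121 (0.47, adjusted p = 0.143). Cd63, a tetraspanin of lysosomes and exosomes, read 209, 263, 185 and 267 at 11 and 651, 1084, 541 and 387 at 18 months, and it rose 2.72-fold (a log2 difference of 1.44, SE 0.29, adjusted p = 0.0446). In these bulk samples more cells of a type and more RNA per cell cannot be told apart. The summed signal of 8 measured macrophage markers, among them Cd68, Csf1r and Adgre1, was 2508 to 4199 at 11 and 3252 to 4726 at 18 months, so that the groups overlapped. Its part in the class II values was not tested.

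Markers of other immune cells stood at low levels. S100a9, a calcium-binding protein of neutrophils, read 79.0, 118, 60.1 and 83.4 at 11 months and 144, 351, 306 and 199 at 18 months. It rose 2.85-fold (a log2 difference of 1.51, SE 0.27, adjusted p = 0.0277), and its partner S100a8, below the floor on all 4 arrays of 11 months, read 35.9 to 75.7 at 18 months (adjusted p = 0.187). The sum of 3 measured neutrophil markers was 87.3 to 150 and 191 to 439. S100a9 itself gave most of it, for example 351 of 439 on replicate 2 of 18 months. Csf3r, a defining neutrophil receptor, was below the floor on all 8 arrays, and Mpo, Elane and Cxcr2 were not analysed here. T and natural killer cell markers summed to 174 to 286 at 11 and 191 to 290 at 18 months, with Cd3d and Cd3e below the floor on all 8 arrays. B and plasma cell markers summed to 49.9 to 124 and 97.1 to 272, with Ms4a1 and Mzb1 below it. Cholangiocyte markers summed to 124 to 189 and 178 to 447, with Cftr and Krt7 below the floor on all 8 arrays. For stellate cells and fibroblasts the sums were 785 to 1190 and 986 to 1612, and for sinusoidal endothelium 954 to 1932 and 1484 to 1885.

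Lbp had the largest positive log2 difference among the called genes. Lbp, the plasma protein that binds bacterial lipopolysaccharide, read 413, 510, 606 and 692 at 11 months and 1592, 2888, 2195 and 945 at 18 months. It rose 3.22-fold (a log2 difference of 1.69, SE 0.29, adjusted p = 0.0225), with means of 471 ± 96.4 at 6 and 1282 ± 398 at 24 months. It was the 1 of 23 acute-phase genes tested that passed. The list's median was 0.11 and 6 members, all higher, lay past an unadjusted p under 0.05, as did 6.05% of all genes in this direction. Orm1, an acute-phase glycoprotein, had means of 4611 ± 423 and 6195 ± 630 (SD, n = 4; log2 fold change 0.43, adjusted p = 0.162).

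Nfkbia, the NF-kB inhibitor that NF-kB itself induces, read 182, 229, 195 and 191 at 11 and 325, 399, 358 and 292 at 18 months. It rose 1.72-fold (a log2 difference of 0.78, SE 0.13, adjusted p = 0.0225). Among 21 NF-kB target, chemokine and adhesion genes tested it was the 1 call, against 0.206% of all genes called higher. Of the 21, 6 were higher and 0 lower at an unadjusted p under 0.05, against 6.05% and 5.08% of all genes. The median was 0.22. Tnfaip3, another induced inhibitor, had a log2 fold change of 1.503 (SE 0.45, adjusted p = 0.171), with replicate 2 of 18 months at 885 and the other 7 arrays at 55.5 to 176. The window of Nfkbia held the kappaB motif (GGG, any pair of letters, then TTTCC), present in 1.53% of windows, on its minus strand, so that the stretch shows it in reverse complement, in capitals. Of the other 2 genes of this group that were searched, the window of Tnfaip3 held 2 matches and that of Cxcl16 none, and matches also stood in windows of Nr1d1 and Cd74.
Nfkbia, chr6:78597073-78597172, minus strand: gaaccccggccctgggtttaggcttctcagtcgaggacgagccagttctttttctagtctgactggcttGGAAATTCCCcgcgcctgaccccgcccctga
Neurl3, a ubiquitin ligase of the neuralized family, read 41.0, 57.7, 64.0 and 66.1 at 11 and 115, 281, 164 and 133 at 18 months and rose 2.90-fold (a log2 difference of 1.54, SE 0.23, adjusted p = 0.0224). Unc5cl, a death-domain protein, had means of 157 ± 11.0 and 389 ± 105 (SD, n = 4) and rose 2.41-fold (adjusted p = 0.0279). Ifitm3, an interferon-induced membrane protein, had 1321 ± 148 and 2295 ± 307 and rose 1.73-fold (adjusted p = 0.0224).

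Cytoskeletal and calcium-binding genes were mostly higher. Of 36 actin, S100 and annexin genes tested, 1 rose, 35 had a positive log2 fold change and 16 of these lay past an unadjusted p under 0.05 (6.05% of all genes in this direction), with a list median of 0.33. The 1 with a negative value (-0.61) also lay past that limit (5.08% of all genes). Vim, the intermediate filament of mesenchymal cells, read 166, 226, 153 and 194 at 11 months and 405, 312, 412 and 270 at 18 months and rose 1.88-fold (a log2 difference of 0.91, SE 0.17, adjusted p = 0.0325). S100a11 had means of 127.8 ± 59.1 and 350 ± 131 (SD, n = 4; log2 fold change 1.49, adjusted p = 0.0557), and Anxa1, an annexin, 103 ± 18.2 and 212 ± 54.5 (1.02, adjusted p = 0.0557). S100a10, S100a6, Anxa2 and Anxa5 had log2 fold changes of 0.70, 0.54, 0.81 and 0.77, and none passed.

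The cell cycle inhibitors Cdkn1a and Cdkn1c fell. Cdkn1a, the inhibitor p21, read 354, 445, 716 and 484 at 11 months and 220, 108, 163 and 137 at 18 months. It fell 3.18-fold (a log2 difference of -1.67, SE 0.27, adjusted p = 0.0224), and its second probe set, of lower signal, gave -0.65. Its means were 206 ± 32.3 at 6, 500 ± 155 at 11, 157 ± 47.3 at 18 and 152 ± 60.3 at 24 months, so that the 11-month group was the highest of the 4 ages. Between 6 and 11 months its log2 fold change was 1.24 (adjusted p = 0.718), in a comparison that shares the 11-month arrays. Cdkn1c, the related inhibitor p57, read 61.3, 120, 94.2 and 122 at 11 and 58.9, 30.7, 41.8 and 31.5 at 18 months and fell 2.41-fold on the floored scale (a log2 difference of -1.27, SE 0.23, adjusted p = 0.0277). Its 11-month group was the highest of the 4 ages as well, with means of 52.3 at 6, 99.4 at 11, 40.8 at 18 and 54.6 at 24 months. Of 22 p53 target, growth arrest and senescence genes tested, Cdkn1a was the 1 that fell, and 6 of 22 were lower at an unadjusted p under 0.05 (5.08% of all genes), with a median of -0.04. The other 5 were Plk2 (-0.76), Mdm2 (-0.55), Phlda3 (-0.55), Sesn2 (-0.48) and Ccng1 (-0.48), as log2 fold changes. Bcl2l11, the pro-apoptotic protein BIM, rose 2.05-fold on the floored scale, from 40.7 ± 14.5 to 86.5 ± 20.1 (SD, n = 4; adjusted p = 0.0446).

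The other calls were spread over functions. Herpud1, a protein of endoplasmic reticulum stress, read 552, 406, 445 and 678 at 11 and 1119, 1039, 1485 and 932 at 18 months and rose 2.21-fold (a log2 difference of 1.14, SE 0.20, adjusted p = 0.0257). It was the 1 call among 23 genes of the unfolded protein response, against 0.206% of all genes called higher. Of the 23, 2 were higher and 0 lower at an unadjusted p under 0.05, against 6.05% and 5.08% of all genes. Their median was 0.06, and Atf4, a transcription factor of that response, had a log2 fold change of 0.17. C1qtnf3, a secreted protein of the C1q and TNF family, read 162, 271, 220 and 169 at 11 and 44.7, 51.7, 30.1 and 137 at 18 months and fell 3.57-fold on the floored scale (a log2 difference of -1.84, SE 0.35, adjusted p = 0.0325). Cela1, an elastase, had 119 ± 62.2 at 11 months and lay at 6.86 to 35.3 at 18 months, and it fell 3.15-fold on the floored scale (adjusted p = 0.0313). Lgalsl, a galectin-like protein, had the smallest p of all genes: it read 293, 257, 255 and 291 at 11 and 133, 172, 115 and 120 at 18 months and fell 2.05-fold (a log2 difference of -1.04, SE 0.14, adjusted p = 0.0117). Its other probe set, with means of 26.7 and 18.8 under the floor, gave -0.08, and with the mean of both probe sets Lgalsl had -0.56 and did not pass. Abcc9, a sulfonylurea receptor, fell 2.03-fold (152 ± 26.5 to 76.0 ± 19.7, adjusted p = 0.0277), and L3hypdh, a hydroxyproline dehydratase, 1.77-fold (203 ± 38.4 to 114 ± 20.2, adjusted p = 0.0277).

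Of the remaining calls, Pla2g12a, a secreted phospholipase, rose 2.45-fold on the floored scale (42.3 ± 15.8 to 103 ± 20.8; SD, n = 4; adjusted p = 0.0325). Gas6, a ligand of the TAM receptors, rose 1.80-fold (adjusted p = 0.0279) on the probe set used, while its other 2 probe sets gave log2 fold changes of 0.56 and -0.06. Rgs10, a regulator of G protein signalling, rose 1.68-fold (36.2 ± 5.48 to 60.2 ± 2.58, adjusted p = 0.0225). Tnfrsf12a, the receptor of TWEAK, rose 1.52-fold on the floored scale (adjusted p = 0.0224), with 3 of its 4 arrays of 11 months below the floor. All 4 arrays of 6 months and 1 of 24 months also lay below it, so its SE of 0.099 and its p depend on the floor as well.

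**Figure D5:**
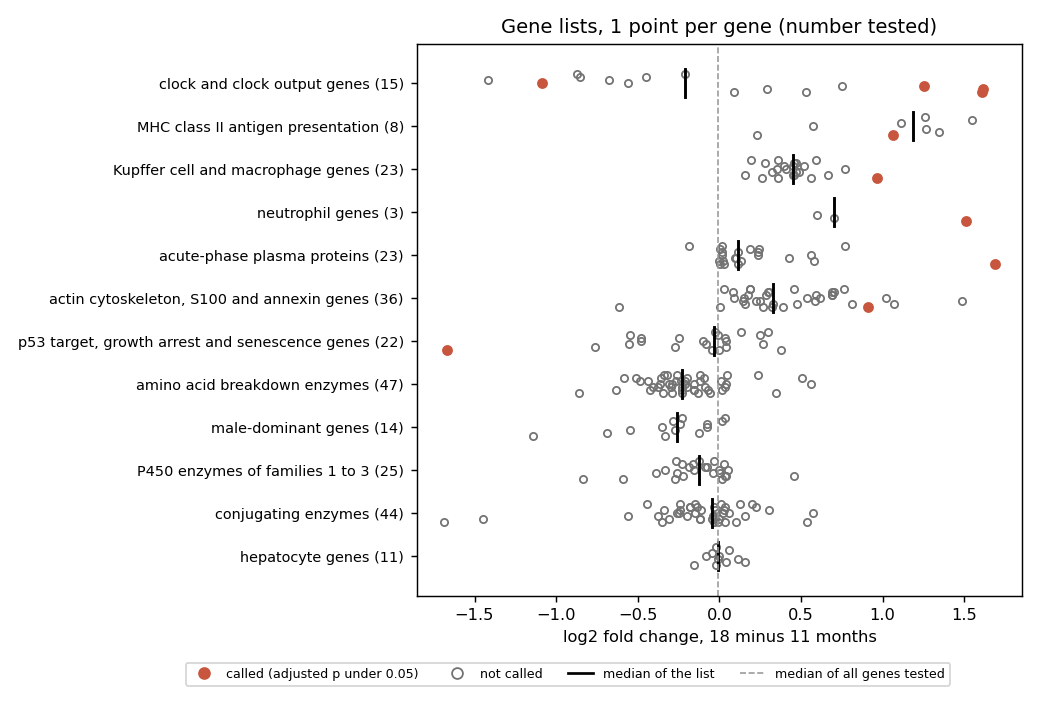
Log2 fold change from 11 to 18 months (x axis) of each tested gene in 12 lists (y axis, number tested in brackets), with filled points for called genes, open points for others and a black bar for the list's median. MHC class II genes have a median of 1.18 and macrophage genes 0.45, the hepatocyte genes -0.01 and the amino acid breakdown enzymes -0.23.

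Drug-metabolising genes gave no call. In limma, 0 of 25 P450 enzymes of families 1 to 3, 8 of family 4, 76 other phase 1 enzymes, 44 conjugating enzymes and 26 transporters passed. At an unadjusted p under 0.05, 0, 2, 6, 1 and 2 of them were higher and 1, 0, 8, 5 and 1 lower, against 6.05% and 5.08% of all genes. Hsd17b2, a hydroxysteroid dehydrogenase, was the nearest to passing: it read 353, 801, 942 and 1241 at 11 and 3453, 1833, 3834 and 2618 at 18 months, without overlap (log2 fold change 1.90, SE 0.40, adjusted p = 0.0557). Cyp4a8, a fatty acid hydroxylase, had means of 255 ± 101 and 560 ± 153 (SD, n = 4; log2 fold change 1.17, adjusted p = 0.138). Inmt, a methyltransferase of indoleamines, read 858, 1544, 1529 and 779 at 11 and 601, 192, 315 and 405 at 18 months, without overlap (log2 fold change -1.69, SE 0.40, adjusted p = 0.105). Gsta3, a glutathione S-transferase, read 188, 356, 297 and 295 at 11 and 118, 102, 125 and 71.2 at 18 months, also without overlap (-1.45, SE 0.36, adjusted p = 0.112). Fmo5, a flavin monooxygenase, had 1223 ± 152 and 1818 ± 160 (0.58, adjusted p = 0.286), and Gstp1 161 ± 59.3 and 231 ± 72.4 (0.54, adjusted p = 0.519).

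Genes of the male pattern were not called. Cyp2c11 had means of 6038 ± 669 and 5193 ± 960 (SD, n = 4), a log2 fold change of -0.23 with a 95% interval of -0.90 to 0.45. Cyp3a2 had 5399 ± 313 and 5153 ± 729 (-0.08, interval -0.72 to 0.56), and Hsd3b5, a male-specific steroid dehydrogenase, 2311 ± 519 and 1998 ± 763 (-0.29, interval -0.90 to 0.32). Without replicate 3 of 18 months the signs of Cyp3a2 and Hsd3b5 turned. Of 14 male-dominant genes tested none passed and 2 were lower at an unadjusted p under 0.05 (5.08% of all genes in this direction), with a median of -0.26. Dhrs7l1 had a log2 fold change of -1.14 (SE 0.34, adjusted p = 0.173) and read 1481, 453, 484 and 1560 at 18 months, against 1485 to 2732 at 11 months. Akr1c3, an aldo-keto reductase, had 212 ± 47.6 and 136 ± 46.1 (-0.69, adjusted p = 0.242). Among 12 female-dominant genes none passed: Prlr, the prolactin receptor, had 131 ± 103 and 318 ± 111 (1.55, SE 0.44, adjusted p = 0.151), and Cyp2c12 had 612 ± 413 and 391 ± 419 (-0.84, adjusted p = 0.654).

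Amino acid breakdown enzymes gave no call in limma, and 9 of 47 had a positive log2 fold change, up to 0.56, and the others a negative one. Of the 47, 13 were lower at an unadjusted p under 0.05 and 0 higher, against 5.08% and 6.05% of all genes, and the median was -0.23. Hal, which starts histidine breakdown, read 644, 929, 609 and 886 at 11 and 471, 253, 484 and 516 at 18 months, without overlap (log2 fold change -0.86, SE 0.21, adjusted p = 0.115). Uroc1, the next enzyme of that pathway, had 3050 ± 146 and 2364 ± 319 (SD, n = 4; -0.38, adjusted p = 0.21). Kynu and Kmo, of tryptophan breakdown, had log2 fold changes of -0.43 and -0.31.

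Of 10 metallothionein and zinc handling genes tested, 0 passed, 3 were higher and 0 lower at an unadjusted p under 0.05 and 5 had a positive log2 fold change (median 0.02). Of 23 glucocorticoid and fasting response genes, Cdkn1a was the 1 that passed, and 4 were higher and 1 lower at an unadjusted p under 0.05 (median 0.14), against 6.05% and 5.08% of all genes. Mt2A, a metallothionein, read 226, 793, 486 and 523 at 11 and 2525, 1139, 2036 and 1528 at 18 months, without overlap, and had the largest positive log2 fold change of all genes tested, 1.90 (SE 0.41), but did not pass (adjusted p = 0.0575). Mt1 had a log2 fold change of 1.08 (adjusted p = 0.397). Igfbp1, a fasting-induced binding protein, read 58.1, 85.4, 38.8 and 70.2 at 11 and 85.1, 530, 145 and 190 at 18 months (1.63, SE 0.41, adjusted p = 0.121), and replicate 2 was the highest. Klf9, a glucocorticoid-induced factor, had 721 ± 262 and 1379 ± 439 (SD, n = 4; 0.95, adjusted p = 0.0983).

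The change was set beside that of Brown Norway controls between 12 and 24 months, 3 rats per age, in which 2 of 8584 genes passed (0.0233%). The ages and the interval differ between the strains. By limma's estimates the strains' changes differed for 0 of 7956 genes, and 646 (8.12%) had an unadjusted p below 0.05. The smallest adjusted p among the called genes was 0.417. Of 25 called genes with a value in both strains, 21 had the same direction in Brown Norway rats, against 57.9% of all genes. RT1-DMa had a log2 fold change of 1.07 in both strains (SE 0.20 and 0.40), and Lbp 1.69 in F344 and 1.05 (SE 0.50) in Brown Norway rats. Cdkn1a went the other way, with -1.67 in F344 and 1.39 (SE 0.55) in Brown Norway rats, a difference of -3.06 (SE 0.61, adjusted p = 0.417). Nr1d1 had 1.61 in F344 and -1.04 (SE 0.47) in Brown Norway rats, a difference of 2.66 (SE 0.54, adjusted p = 0.417). The list medians in Brown Norway rats were 1.10 for MHC class II, 0.83 for macrophage and -0.43 for amino acid breakdown genes.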

How the data were processed

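Liver RNA of each rat was measured on its own array. The authors deposited linear intensity values, and the submitters' processing notes name MAS5 and RMA without role or order, so how values were scaled is not given in the sources used here. Of the probe sets, 17584 have 1 gene symbol, 393 several and 6916 none. A gene was represented by the probe set of highest mean log2 signal over the F344 arrays. Signals were floored at 32, log2 was taken, and the 9206 of 11943 genes above the floor on at least 4 of the 16 F344 arrays were tested. Group means of the 4 F344 ages were fitted with limma 3.58.1 in R 4.3.3, which pools the spread over ages, with Benjamini-Hochberg adjustment. Folds are those of group means of floored log2 signals, so they differ from the ratio of mean signals and depend on the floor where arrays lie below it. Arrays set to the floor have no spread among themselves, so SE and p depend on it there too. Replicate numbers follow accession order. Brown Norway effects came from a separate fit, with genes above the floor on at least 3 arrays. The code was tested on simulated data. Per-sample columns not used numbered 0.

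The members and lists were chosen with earlier results of these data known. Genes are named if among the 10 largest calls each way, the 4 smallest p of a described list, or a fixed set. Ifitm3, Tnfrsf12a, Rgs10, Gas6, Bcl2l11, the clock members below the first 4 of their list, RT1-Ba, RT1-Db1, Cd74, Ciita, S100a10, S100a6, Anxa2, Anxa5, Sesn2, Phlda3 and the 5 genes nearest the threshold were chosen after their values were seen. Alternatives changed the probe set rule, filter, scaling, floor, variance model, weights and arrays. The number of arrays limits precision, and p-values measure the spread between these animals.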

Additional observations from a re-analysis of the deposited data

Results flagged for a closer look

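Dixon's ratio was taken on floored log2 signals of 91 named genes in 2 groups each. By it 10 values stood apart from the other 3 arrays of their group beyond the critical value, where chance gives about 1 in 20 groups (here 5.49%). The signals printed below are not floored. In Dbp, Tnfrsf12a and S100a4 at 11 months the flag depends on the floor, which sets low arrays to 32. At 11 months, replicate 1 was highest in Tnfrsf12a (35.8, others 17.1 to 27.0, all below the floor) and lowest in Il1r1 (333, others 491 to 520). Replicate 4 was highest in Dbp (36.2, others 12.9 to 32.2) and S100a4 (33.7, others 5.42 to 12.5), and replicate 2 in Rgs10 (44.4, others 33.3 to 33.7) and Il1b (55.9, others 49.4 to 49.9). At 18 months, replicate 1 was lowest in Rgs10 (56.4, others 61.1 to 62.0), replicate 2 in Hal (253, others 471 to 516), replicate 3 in Cyp3a2 (4062, others 5476 to 5583) and replicate 4 in Anxa5 (132, others 230 to 246). The GAPDH ratio of replicate 4 of 18 months was 5.31, against 1.31 to 1.88 on the other 3. No difference between the strains was called.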

How the results depend on the processing

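The main fit called 27 genes. With each probe set on its own, a mean of a gene's probe sets, or another quantile or median scaling, 23 to 30 passed. Counts were 19 among the genes above the median signal, 21 with a floor 4 times as high and 35 with a variance trend. The genes passing were not always the same. All 27 still passed with another quantile or median scaling. Of them 19 passed with the mean of probe sets, 6 with a floor of 8 and 4 with no filter on low values. There were 7 with no filter on low values, 13 with a floor of 8, 0 with a minimum fold of 2 (10 at an unadjusted p under 0.05), 0 in a fit of the 2 compared groups only (778 at an unadjusted p under 0.05) and 1 without the arrays with a GAPDH ratio above 2.5. There were 256 with array quality weights, 63 with the GAPDH ratio as a covariate and 54 without the 2 arrays that stand apart, an alternative chosen after seeing the data. Leaving out 1 array gave 0 to 81 genes. The cause of these shifts was not tested. Each called gene kept its direction wherever it had a value. With 1 array left out, the log2 fold change ranged from -0.47 to 0.029 for Hsd3b5 and from -0.12 to 0.033 for Cyp3a2, positive without replicate 3 of 18 months. For the difference between strains, leaving out 1 array gave 0 to 1 genes, the 1 being Ugt2b10, a glucuronosyltransferase named after its values were seen (difference -4.10, adjusted p = 0.000292), without replicate 3 of the 12-month Brown Norway controls, and a floor of 8, one 4 times as high as 32, and one fit over both strains gave 0 (765, 316 and 720 at an unadjusted p under 0.05). No paired analysis was possible because the labels give animal numbers that differ between groups and no shared replicate number. Low signals limit Dbp, Per3, Tnfrsf12a, S100a8 and Ciita, which lie near the floor.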

Other observations

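No gene of the lists of interferon-responsive, matrix and fatty acid synthesis genes was called by limma; Ifitm3, which rose, is not in these lists. At an unadjusted p under 0.05, which 6.05% of all genes passed as higher and 5.08% as lower, 11 of 36 interferon-responsive genes tested were higher and 1 lower (median log2 fold change 0.10). Gbp2, a guanylate-binding protein, had a log2 fold change of 1.06 (adjusted p = 0.135). Of 26 stellate cell, fibroblast and matrix genes, 10 were higher and 0 lower (median 0.22). Col1a1, a chain of type I collagen, had a log2 fold change of 0.91 (adjusted p = 0.151). Of 22 fatty acid synthesis genes, 4 were lower and 0 higher (median -0.30, and -0.10 without the 2 arrays that stand apart). Elovl6, a fatty acid elongase, had the lowest value of that list, -1.51 (SE 0.64, adjusted p = 0.4). Of 70 genes of the mitochondrial respiratory chain 13 had a positive log2 fold change, with a median of -0.10, and of 42 ribosomal protein genes 34 had one, with a median of 0.08. These genes were chosen after their values were seen.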
